A study of Mus musculus with 8 samples.

Results

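The genes examined here, 10 in all, encode receptors, a channel and a G protein subunit through which endocrine cells of the gut are known to sense nutrients and irritants. They are Trpa1, Ffar1, Ffar2, Ffar3, Gpr119, Gpr142, Casr, Olfr78, Tas1r3 and Gnat3. They were found by their gene names in the array files. Each was represented by 1 probe printed as 1 spot, so the 10 genes correspond to 10 of the 55681 distinct probes of the array. Of the 10 genes, 4 were well above background on all 8 arrays, 2 on 4 of the 8 arrays and 4 on none. Trpa1 was lower in the mutants, with a call that was kept in 8 of 18 processing alternatives. No change of Ffar2, Ffar3 and Tas1r3 was detected. Ffar1, Gpr142, Casr and Gnat3 were not measured at this sensitivity.

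Whole small intestine was taken from mice at stage E18.5, and its RNA was hybridised to 1 array for each of 4 controls and 4 mutants. The controls carried floxed Rfx6 without a named Cre: replicates 1, 3 and 4 were Rfx6 fl/+ and replicate 2 was Rfx6 fl/fl. The mutants were Rfx6 fl/fl Ngn3-cre, so Rfx6 deletion was aimed at cells that had expressed Ngn3, the gene of endocrine progenitors, and all 8 samples carried at least 1 floxed allele. For mutant replicates 2, 3 and 4 the free-text label gives another Rfx name as deleted, a different one in each. Their titles and source names give Rfx6 and were followed here. Cre was named for the mutants alone, so an effect of Cre and an effect of losing Rfx6 cannot be told apart. Rfx6 is a transcription factor of endocrine cells, and the comparison asks which genes of these cells depend on it. Whether each array came from a separate embryo is stated no more closely than by sample numbers, and p-values measure the spread between these samples.

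An enteroendocrine cell works as a chemical sensor with a secretory output. Receptors and channels on its surface or its basal side respond to fatty acids, amino acids, sugars, calcium or irritants, raise calcium or cyclic AMP inside the cell, and trigger the release of peptide hormones or serotonin. Ffar1 responds to long-chain and Ffar2 and Ffar3 to short-chain fatty acids, Gpr119 to lipid amides and monoacylglycerols, Gpr142 and Casr to aromatic amino acids, Casr also to calcium, and Trpa1 to electrophilic irritants. Several of these genes are also used by other cells of the gut wall, such as immune cells, neurons and tuft cells.

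Levels are given as the log2 processed intensity of the probe relative to the 75th percentile of its array. A level of 0 thus equals the 75th percentile, which lay at an intensity of 788 to 1027, and a level is not comparable between probes. Differences are mutant minus control on the log2 scale. The labelled tissue was checked against 8 intestinal epithelial genes, among them Vil1, Cdx2, Fabp1 and Alpi, and all 8 were well above background on every array. Mutant replicate 1 stood apart, correlating with the rest at 0.978 on average, where the 7 others had 0.990 to 0.991. The probe for Rfx6 did not check the labels: it stood at -3.32, -3.20, -3.48 and -2.93 in control replicates 1 to 4, at -3.37, -3.02 and -3.02 in mutant replicates 2, 3 and 4, and at -5.52, not well above background, in mutant replicate 1. Its position relative to the floxed exons is not given in the sources used here.

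The free fatty acid receptor genes are neighbours. Their probes fall within 41635 bases of chromosome 7 on build mm9, all on the minus strand, with Ffar2 at chr7:31604149-31604208, Ffar3 at chr7:31640309-31640368 and Ffar1 at chr7:31645724-31645783. In the RefSeq gene order (GRCm38.p6, used for order only) 1 other gene, the noncoding Gm32236, lies between Ffar2 and Ffar3, and Ffar3 and Ffar1 follow each other directly. Only 5355 bases separate the Ffar3 and Ffar1 probes, yet Ffar3 was well above background on all 8 arrays and Ffar1 on none. The 60-base sequences of both probes are shown so that the readings of these related, adjacent genes can be told apart. The longest run of bases they share is 6 long and is printed in capitals.
Ffar3 probe: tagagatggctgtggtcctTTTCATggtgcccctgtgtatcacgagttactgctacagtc
Ffar1 probe: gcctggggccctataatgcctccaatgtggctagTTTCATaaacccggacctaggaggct
The first 30 of the 60 bases of the Trpa1 probe are shown to identify the probe behind the 1 member that changed. That probe lies at chr1:14862782-14862841 on the minus strand of mm9.
Trpa1 probe, bases 1 to 30: gcagaaattcactgttccttcctcaaattt

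**Figure D1:**
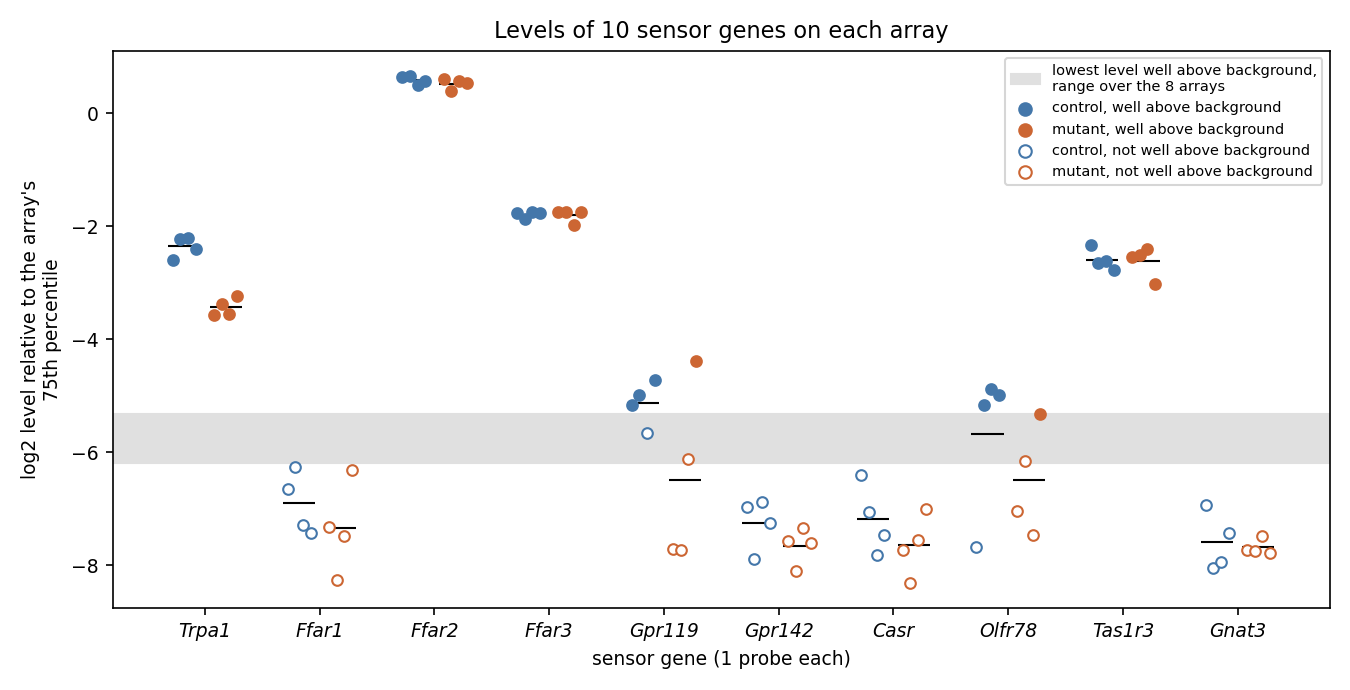
Level of each of the 10 sensor genes on each array, as log2 intensity relative to the 75th percentile of that array (vertical axis), with controls in blue, mutants in orange, black bars for group means, open points for readings not well above background and a grey band for the lowest level well above background across arrays (-6.19 to -5.32). The 4 mutant points of Trpa1 lie below all 4 control points, the groups of the other 9 genes overlap, and Ffar1, Gpr142, Casr and Gnat3 have open points alone.

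Trpa1, a cation channel opened by irritant chemicals and known in enterochromaffin cells, the serotonin-producing endocrine cells, fell in the mutants. In control replicates 1, 2, 3 and 4 its level was -2.60, -2.22, -2.21 and -2.40. In mutant replicates 1, 2, 3 and 4 it was -3.58, -3.37, -3.55 and -3.23. Every mutant array was thus below every control array, and the probe was well above background on all 8. The group levels were -2.36 ± 0.18 and -3.43 ± 0.16 (SD, n = 4 each). Mutant minus control was -1.07 (SE 0.13, limma adjusted p = 0.0302 over all 25330 genes tested). This is a 2.10-fold fall with a 95% interval of 1.72-fold to 2.57-fold. In intensity, the controls read 160 to 220 and the mutants 65.9 to 110.

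Trpa1 was the 1 sensor gene called, of 6 tested, in a list chosen with earlier results of these data known. Because of that choice the count is not an independent result. Over all genes tested, 0.0592% passed the same test, which is 15 genes, with 0.0553% (14 genes) lower and 0.00395% (1 gene) higher in the mutants, and 5.34% had an unadjusted p under 0.05. By unadjusted p, Trpa1 was the 15th of these 15, so its call is the last to be made. Its direction was the same in all 18 alternatives, with a difference of -1.15 to -0.67, but it passed the threshold in 8 of them. The call was lost without control replicate 2, the fl/fl control (adjusted p = 0.147), without control replicate 3 (0.119) or 4 (0.171), and without mutant replicate 1 (0.0697), 2 (0.0992) or 3 (0.140). It was also lost with the deposited value table (0.0538), with the slide row as a block (0.0610) and without the filter on dim probes (0.0911). The difference without mutant replicate 1, the array that stood apart, was -1.02. In bulk tissue, fewer cells of a type and less RNA per cell cannot be told apart.

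**Figure D2:**
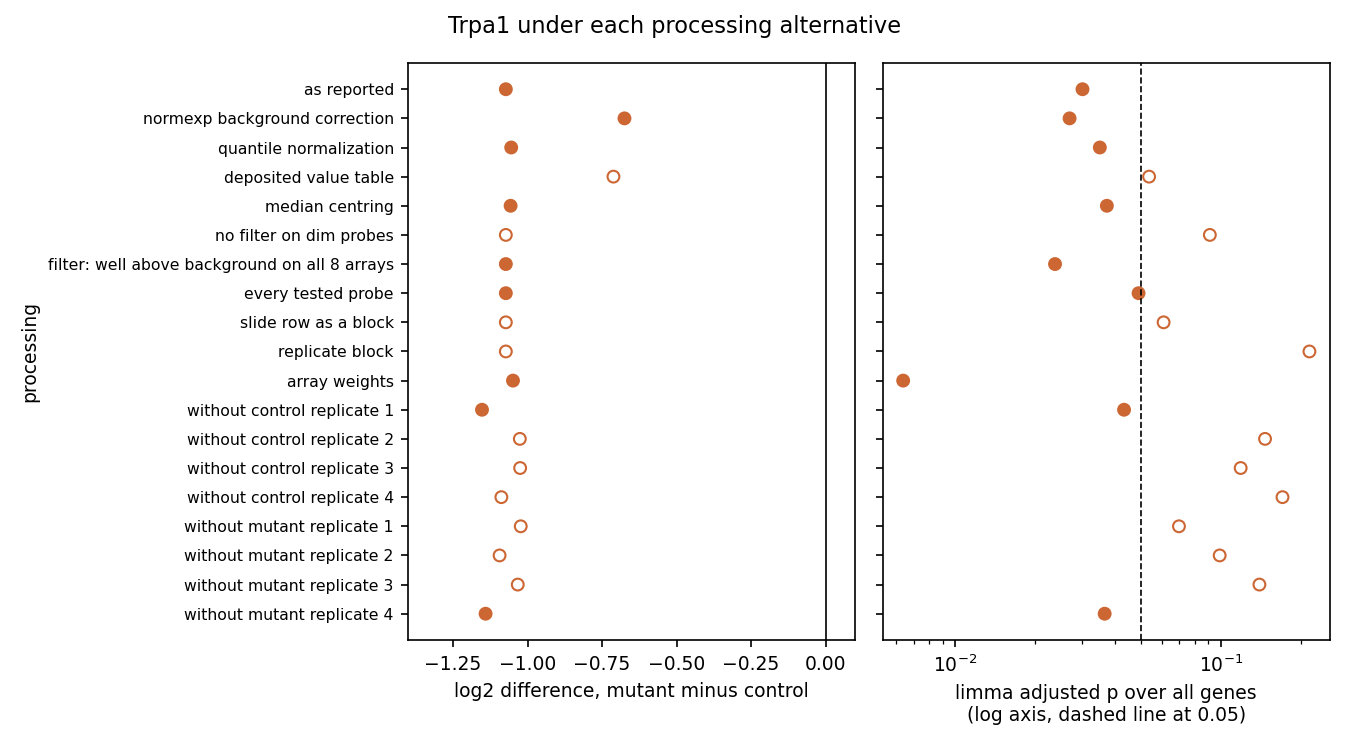
Trpa1 under the reported processing and 18 alternatives (rows), with the log2 difference, mutant minus control, on the left and the limma adjusted p over all genes on a log axis on the right; filled points are under the threshold of 0.05 (dashed line). Every difference lies between -1.15 and -0.67, while the adjusted p runs from 0.00638 to 0.216.

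The short-chain fatty acid receptors showed no detected change. Ffar2 stood at 0.65, 0.66, 0.50 and 0.57 in control replicates 1 to 4 and at 0.60, 0.39, 0.57 and 0.53 in mutant replicates 1 to 4. These values overlap, with mutant replicate 2 the lowest. The difference was -0.07 (SE 0.09, limma adjusted p = 0.841), and its 95% interval, -0.27 to 0.13, holds no fall beyond 1.21-fold and no rise beyond 1.09-fold. Ffar3, which in the gut is also known in enteric neurons, stood at -1.77, -1.88, -1.75 and -1.77 in the controls and at -1.75, -1.74, -1.97 and -1.74 in the mutants. The groups overlap here too, and mutant replicate 3 lies below the other 7 arrays. The Ffar3 difference was -0.01 (SE 0.09, limma adjusted p = 0.985), with an interval of -0.21 to 0.20, or no more than a 1.16-fold fall or a 1.15-fold rise. The sign of the Ffar3 difference turned in 7 of 18 alternatives, among them normexp, quantile normalization and median centring.

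Tas1r3, the shared subunit of the sweet and umami taste receptors, was likewise measured on every array without a detected change. Its level was -2.33, -2.65, -2.61 and -2.78 in control replicates 1 to 4 and -2.55, -2.51, -2.40 and -3.02 in mutant replicates 1 to 4. Mutant replicate 4 was the lowest array and control replicate 1 the highest, and the others were interleaved. The difference was -0.02 (SE 0.16, limma adjusted p = 0.975). Its interval of -0.39 to 0.34 is wider than those of Ffar2 and Ffar3 and allows a fall of up to 1.31-fold. Its probe lies at chr4:155234018-155234077 on mm9.

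The fall of Trpa1 was set directly against these 3 genes, array by array, in comparisons chosen after the values were seen. Trpa1 minus Ffar2 was -3.25 to -2.72 in controls and -4.18 to -3.76 in mutants, a shift of -1.002, and Trpa1 minus Ffar3 was -0.83 to -0.34 and -1.83 to -1.49, a shift of -1.07. In neither did the groups overlap. Trpa1 minus Tas1r3 shifted by -1.05, from -0.27 to 0.44 in controls to -1.15 to -0.21 in mutants. Control replicate 1 and mutant replicate 4 overlapped. Since Trpa1 and the 3 genes were set together with their values known, these shifts are descriptions and are given with no test.

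Gpr119, a receptor for lipid-derived amides known on cells that secrete GLP-1 and GIP, lay at the limit of detection. Its level was -5.17, -4.99, -5.66 and -4.73 in control replicates 1 to 4, where replicate 3 was not well above background. In mutant replicates 1, 2 and 3 it was -7.72, -7.74 and -6.12, all not well above background, while mutant replicate 4 stood at -4.39, above every control. Mutant replicates 1 to 3 were thus below all controls and replicate 4 was the highest of the 8 arrays. The group levels were -5.14 ± 0.39 and -6.49 ± 1.59 (SD, n = 4 each), and the difference of -1.35 (SE 0.69, limma adjusted p = 0.821) did not exceed the spread between arrays. Its 95% interval, -2.92 to 0.22, includes 0. Without mutant replicate 4 the difference was -2.05 (adjusted p = 0.292), and under normexp -0.15. The probe lies on chromosome X at 46021196 to 46021255 on mm9.

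Olfr78, an olfactory receptor that responds to short-chain acids, was at a similar limit. Control replicates 2, 3 and 4 stood at -5.17, -4.89 and -4.98 and were well above background, whereas control replicate 1 was at -7.68 and was not. Mutant replicate 4, at -5.33, was the only mutant array well above background, and mutant replicates 1, 2 and 3 stood at -7.04, -6.16 and -7.47. The groups overlap through control replicate 1. The difference was -0.82 (SE 0.69, limma adjusted p = 0.821), with a 95% interval of -2.39 to 0.75. It was -1.48 without control replicate 1 (adjusted p = 0.942) and -0.49 without mutant replicate 3 (0.814), and it shrank to -0.12 with normexp and -0.14 with the deposited value table. Like Gpr119, this probe on chromosome 7 at 109889333 to 109889392 was read on 3 of 4 controls and 1 of 4 mutants, and the mutant array on which it was read was the same, replicate 4.

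The remaining 4 members have no measured level in either group, and no fold is given for them. The Ffar1 probe, for the long-chain fatty acid receptor, lay between -7.43 and -6.26 in controls and between -8.27 and -6.31 in mutants. Gpr142, a receptor for aromatic amino acids, lay between -7.89 and -6.88 and between -8.10 and -7.34. Casr, the calcium-sensing receptor, lay between -7.82 and -6.41 and between -8.31 and -7.01. Gnat3, gustducin, the taste G protein subunit, lay between -8.06 and -6.94 and between -7.78 and -7.48. All 32 of these readings were not well above background, so a fall, or a rise that stayed below that limit, could not be seen. No mutant reading of these genes rose to well above background. The lowest level of any probe well above background was -6.19 to -5.32, depending on the array. That level is not a cutoff: Gpr119 in control replicate 3, at -5.66, lay above the -6.09 of its array and was still not well above background. Their probes lie on mm9 at chr7:31645724-31645783, chr11:114668000-114668059, chr16:36493783-36493842 and chr5:17525427-17525486.

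Across the members, chosen with earlier results known, the groups failed to overlap for 1 of the 6 genes tested. Over all genes tested, 4.67% had such groups (1.63% lower and 3.04% higher in the mutants). The difference was below 0 for 6 of 6, against 10853 of 25330 genes, but its sign turned for Ffar3 in 7 alternatives and for Tas1r3 in 3. The median difference of the 4 members read on all 8 arrays was -0.05, and that of all genes was 0.03. The 6 genes do not form a common pattern: 1 fell by about a factor of 2, 3 moved by less than 0.1 and 2 were read on too few arrays for a precise value.

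Trpa1 was next set beside genes listed for enterochromaffin cells, in which it is known. The list was not checked for genes shared with other cells of the gut. Of 8 enterochromaffin genes, 0 passed in limma (3 had an unadjusted p under 0.05, against 5.34% of all genes tested). Over all genes tested, 4.67% had groups that did not overlap, 3.04% as higher in the mutants. In this list 3 genes had such groups, all higher in the mutants. These were Tph1, the enzyme that starts serotonin synthesis (0.60, SE 0.11, adjusted p = 0.277), Lmx1a, a transcription factor (0.75, SE 0.11, 0.109), and Tac1, the precursor of substance P (0.54, SE 0.11, 0.294). The remaining 5 had overlapping groups, with differences of -0.31 for Fev, -0.27 for Chga, -0.03 for Slc18a1, 0.02 for Ddc and 0.03 for Chgb. The median of the list was 0.02. Trpa1 minus Tph1 within each array was -2.17, -1.95, -2.20 and -2.13 in control replicates 1 to 4 and -4.11, -3.59, -3.90 and -3.55 in mutant replicates 1 to 4. All 4 mutants lay below all 4 controls, a shift of -1.67. As Trpa1 alone was lower and Tph1 alone higher in every mutant, this shift restates both and is given with no test.

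Most peptide hormone genes, an output of gut endocrine cells in general, fell as well. Arrays of whole intestine do not tell which cells held each RNA. Of 10 tested, 7 had a larger fall than Trpa1 and 3 did not, and 8 passed as lower: Gip (-8.02), Ghrl (-4.86), Sst (-4.52), Nts (-3.98), Gcg (-3.42), Cck (-2.49), Pyy (-1.58) and Sct (-0.997), with limma adjusted p of 3.39e-06 to 0.0290. Gip was well above background on only 1 of 4 mutant arrays, so its value is imprecise there. Gast (-0.04) and Insl5 (-0.49) had overlapping groups. Trpa1 minus the mean of the 10 hormones was -4.73, -4.17, -4.30 and -4.33 in control replicates 1 to 4 and -2.67, -2.34, -2.69 and -1.95 in mutant replicates 1 to 4. It was higher in every mutant than in any control, by 1.97, again as a description. With Gip left out of the mean, an alternative added after the data were seen, it was -4.70 to -4.17 in controls and -3.25 to -2.48 in mutants, higher by 1.41. In the reported processing, the Trpa1 fall was closest in size to that of Sct, the gene of secretin. The Trpa1 difference was -0.67 with normexp and -0.71 with the deposited value table, and its place among the hormones was not compared there.

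**Figure D3:**
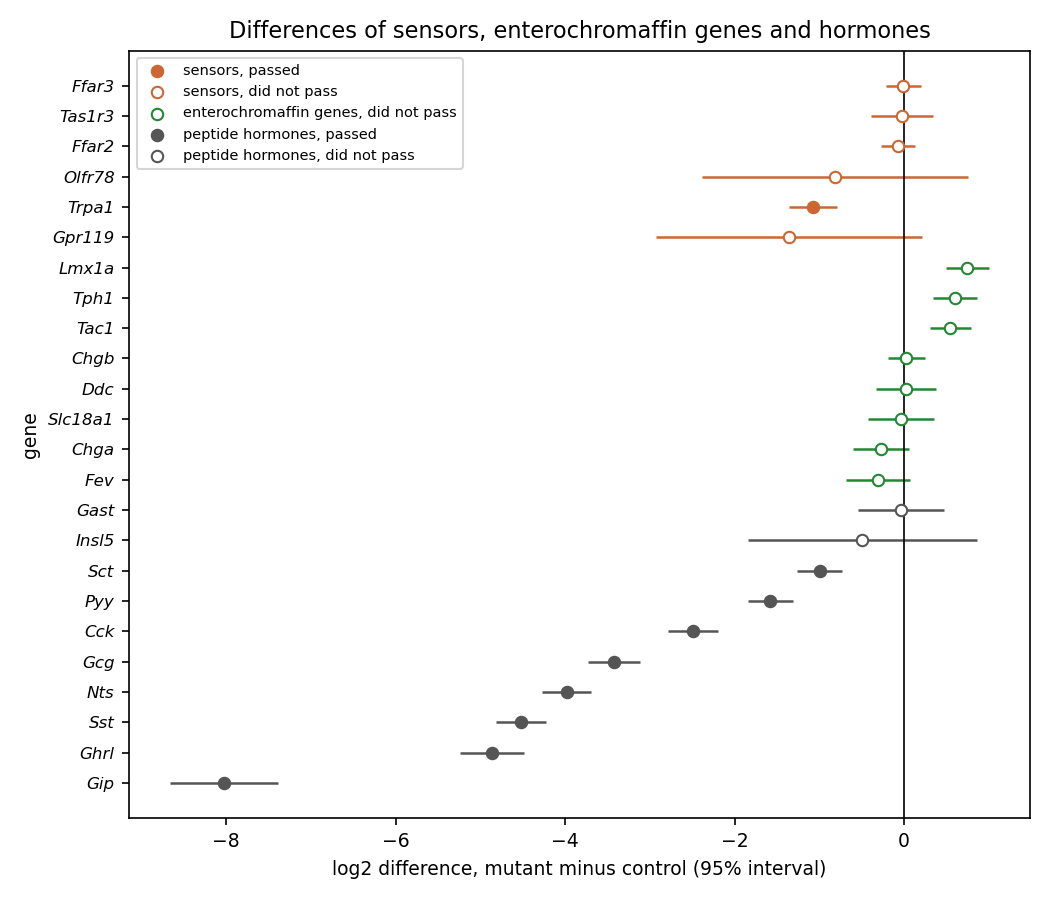
Log2 difference, mutant minus control, with its 95% interval from limma (horizontal axis) for the 6 sensor genes tested, 8 enterochromaffin genes and 10 peptide hormone genes; filled points passed an adjusted p of 0.05. Trpa1 is the filled sensor at -1.07, Gpr119 and Olfr78 have the widest sensor intervals, and the hormones that passed run from -0.997 to -8.02.

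**Figure D4:**
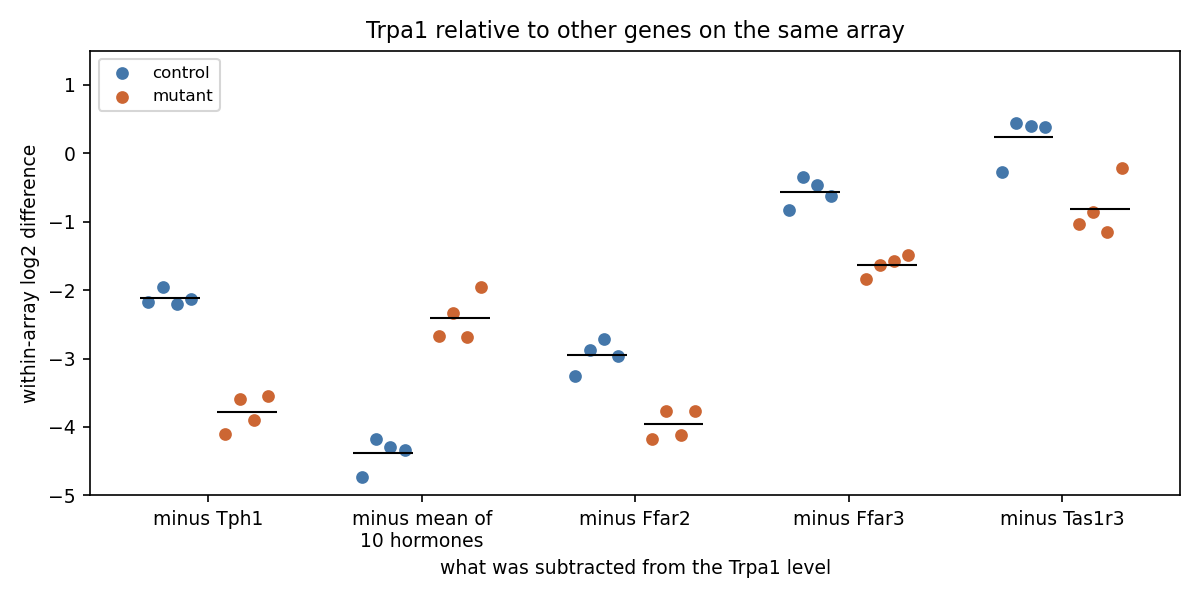
Level of Trpa1 minus that of another gene on the same array, in log2 (vertical axis), for each control (blue) and mutant (orange) array with the group means as bars. The mutants lie below the controls for Tph1, Ffar2 and Ffar3, above them for the mean of 10 hormones, and overlap them for Tas1r3.

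The 5 genes most like Trpa1 were taken as those with the highest Pearson correlation with it over the 8 arrays, among 22862 genes well above background on all of them. They were Caprin1 (r = 0.980), Gcg (0.975), Sst (0.969), Cdc73 (0.966) and a probe named for the transcript ENSMUST00000066533 (0.966). The 8 points of each correlation form the control and mutant groups, so it mainly follows the difference between them, and it is given as a description. Caprin1, which encodes an RNA-binding protein, had a difference of only -0.13 against -3.42 for Gcg, so likeness of shape here says nothing about size.

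No further sensor passed the test that Trpa1 passed. Of 20 further receptors, channels and transporters known for chemical or mechanical sensing, 13 were tested and 0 passed. An unadjusted p under 0.05 in limma was found for 1, against 5.34% of all genes tested. Of the 13, 5 were lower and 8 higher, with a median of 0.03 and no gene whose groups did not overlap. Ffar4, a long-chain fatty acid receptor, had the lowest value (-0.34, SE 0.14, limma adjusted p = 0.821), with overlapping groups. Differences were 0.03 for Gpbar1, the bile acid receptor, -0.10 for Slc5a1, the sodium-coupled glucose transporter, 0.15 for Slc15a1, the peptide transporter, and -0.01 for Trpv1, the capsaicin channel. Piezo2, a mechanically gated channel known in enterochromaffin cells, was at -0.04 (SE 0.09, limma adjusted p = 0.922). The sweet and umami partners of Tas1r3, Tas1r2 and Tas1r1, were well above background on 0 and 3 arrays and were not tested.

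Genes of the signalling steps behind these receptors gave the same count. Of 18, 17 were tested and 0 passed in limma, 9 lower and 8 higher, with a median of -0.03. An unadjusted p under 0.05 in limma was found for 2, against 5.34% of all genes tested. The taste-cascade genes Trpm5 (-0.03), Plcb2 (-0.31), Itpr3 (0.06), Gnb3 (-0.34) and Gng13 (0.43) had overlapping groups.

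Markers of other cells that use these receptors were read on the same arrays. For comparison, 5.34% of all genes tested had an unadjusted p under 0.05 in limma. Groups that did not overlap, with the mutants higher, were found for 3.04%. Of 10 tuft cell genes, 6 were tested and 0 passed (1 had an unadjusted p under 0.05); Pou2f3, the factor that defines tuft cells, was well above background on 1 array, and the summed linear level of the 6 was 5.77 to 6.66 in controls and 5.85 to 7.55 in mutants. Of 8 enteric neuron genes, 0 passed (0 at an unadjusted p under 0.05), with sums of 6.97 to 11 and 8.92 to 11.3. Of 8 immune genes, 0 passed (2 at an unadjusted p under 0.05), with sums of 77.9 to 92.1 and 73.3 to 95.5, and 1, S100a9, was higher in every mutant than in any control. Of 8 pancreas genes, 6 were tested and 0 passed (5 at an unadjusted p under 0.05), but their sum was 1.02 to 2.29 in controls and 2.80 to 13.5 in mutants, without overlap. Within that list Amy2a5 and Cela2a, both acinar enzymes, were higher in every mutant. Cela2a was well above background on 0 of 4 controls and 4 of 4 mutants, so it met the filter through the mutants alone. Its control level was thus not measured, though it is part of the sum. Amy2a5 was well above background on 3 of 4 controls. Ins1 and Ins2 were at -0.43 and -0.10. The part of the pancreas genes in the values of Trpa1 or the other sensors was not tested.

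RefSeq promoters (GRCm38.p6, 250 bases before to 50 after a start) were on hand for 8 of the 10 genes, 12 promoters in all, with none for Trpa1 or Olfr78. The X-box searched, GTTNCC and GGNAAC with 0 to 3 bases between them, reads the same on both strands. It occurred in 0 of the 12 and in 0.804% of the 32851 promoters of that table.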

How the data were processed

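Per the labels' protocols, cRNA for single-colour hybridisation was made from 100 ng of RNA per sample. Scans were quantified with Feature Extraction 10.10.1.1 (design 028005, build mm9, per the file headers), and the authors deposited linear intensity values that were detrended within each array and given surrogate values where dim. A second deposited table of linear intensity values shared its quartiles across arrays; its processing is not given in the sources used here. It served as an alternative.

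From the intensity values, log2 processed signal minus that of each array's 75th percentile over 59305 non-control spots was taken, leaving out 117 to 157 outlier spots an array. Saturation was reported for 0 non-control spots. Replicate spots were averaged. A probe was tested when at least 50% of its spots were well above background on at least 4 of 8 arrays, counted without regard to group, and the brightest tested probe stood for its gene. The test was limma's (3.58.1, R 4.3.3; two-sided, no covariates), adjusted by Benjamini-Hochberg over 25330 genes at 0.05, after a test on simulated data. Probes were named by RefSeq accession (26576), by an older symbol (492) or as in the file (28613).

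The members and gene lists were chosen with earlier results of these data known. Named were all members, the hormone and enterochromaffin genes, called genes of the other sensor and signalling lists with up to 3 further genes per list whose groups did not overlap, and the 5 genes most like Trpa1. A result of the signalling list is not reported here. Values for Ffar4, Piezo2 and the other sensors and signalling genes that did not pass, for S100a9 and for the pancreas genes were added after they were seen. The smooth muscle list had a median difference of 0.20 and the enterocyte list 0.08, with 0 of 8 genes called in each. All arrays lay on 1 slide. The number of arrays, 4 a group, limits the precision.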

Additional observations from a re-analysis of the deposited data

Results flagged for a closer look

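An array is listed where its gap to the nearest of its group exceeded the 95% critical value of Dixon's test. This was so in 4 of the 32 groups of values looked at, where chance gives about 1 in 20, or 1.6. Ffar3 in mutant replicate 3 was at -1.97, with the other mutants at -1.75 to -1.74. Olfr78 in control replicate 1 was at -7.68, not well above background, with the other controls at -5.17 to -4.89. Gnat3 in mutant replicate 3 was at -7.48 against -7.78 to -7.74, and none of these 4 readings was well above background. Trpa1 minus Tas1r3 in control replicate 1 was -0.27 against 0.38 to 0.44, and this array holds both the lowest control level of Trpa1 and the highest of Tas1r3.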

How the results depend on the processing

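Of the 18 alternatives, 15 left the count of genes called within 1.5 times the reported 15. It was 27 with normexp and 42 with array weights, and leaving out 1 array gave 10 to 22. The count of sensor genes called was 0 in place of 1 with the deposited value table, without a filter on dim probes and with the slide row as a block, where the adjusted p of Trpa1 was 0.0538, 0.0911 and 0.0610, and 0 to 1 when 1 array was left out. The replicate block gave 7 genes called and 0 sensors, with an adjusted p of 0.216 for Trpa1; arrays sharing a number had deviation correlations of -0.09 to 0.09, so the numbers were not read as pairs. Ffar3, never called, turned to 0.0085 with normexp, 0.0046 with quantile normalization, 0.0083 with median centring and 0.0050 with array weights, and ranged from -0.036 to 0.050 when 1 array was left out. Tas1r3 turned to 0.074 with array weights and ranged from -0.099 to 0.11 when 1 array was left out. Ffar2, Gpr119 and Olfr78 stayed negative and never passed. The shift of Trpa1 minus Tph1 ranged from -1.75 to -1.57 and that of Trpa1 minus the hormone mean from 1.81 to 2.06 when 1 array was left out. The shift of Trpa1 minus Tph1 was smaller with normexp (-1.246) and with the deposited value table (-1.253). That of Trpa1 minus the hormone mean was 1.963 and 1.958 with these. No probe with a level below -6.19 to -5.32, depending on the array, was well above background.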
